A study of Mus musculus with 12 samples.

Results

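Cd274 and Pdcd1lg2 encode PD-L1 and PD-L2, the 2 known ligands of the inhibitory T cell receptor PD-1, and their m6A marks were read in 3 stages of mouse dendritic cells (DC). Both genes were found by symbol in the deposited lists of m6A peaks and checked through their RefSeq transcripts. They held 16 of 40978 peaks, and they are 2 of 9142 transcripts with a peak in any DC type. The lists of immature DC (imDC), mature DC (maDC) and regulatory DC (DCreg) held 6 of 10517, 6 of 17316 and 4 of 13145 of these peaks. The members were chosen by symbol from lists that were themselves selected on these same enrichments in both replicates, and with the lists in view, so counts and levels are descriptions with no test.

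imDC were CD11c+ cells grown from bone marrow of 6-week C57BL/6 mice with GM-CSF at 10 ng/ml and IL-4 at 1 ng/ml. Matured cells were the same cells after 24 h in LPS at 100 ng/ml, and regulatory cells were maDC after a further 7 days on spleen endothelial cells. Each stage had 2 replicates, and each replicate gave 1 library after pull-down with an m6A antibody (IP) and 1 of input RNA, so 12 libraries in all. RNA was pooled from several mice by the study's methods, no genotype was changed, and the spread between replicates is thus not a spread between animals. A TruSeq kit is labelled for replicate 1 of both imDC and maDC, and NEBNext Ultra for all remaining replicates, so DCreg had 1 kit only.

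PD-L1 and PD-L2 are surface proteins of the B7 family, each with a signal peptide, a V-type and a C-type immunoglobulin domain, a membrane span and a short cytoplasmic tail. On binding, PD-1 recruits the phosphatase SHP-2, which dampens signals from the T cell receptor and from CD28. PD-L1 is made by many cell types, whereas PD-L2 is found mostly on DC, macrophages and some B cells. m6A is a methyl mark on adenosine in mRNA, written by the Mettl3-Mettl14 complex mostly within GGAC and related sequences, often near the stop codon, and read by proteins that bear on decay, splicing and translation.

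The genes are neighbours on the plus strand of chromosome 19 (GRCm38, the same assembly as mm10). The Cd274 transcript NM_021893 spans chr19:29367438-29388095, with 7 exons, 3639 nt, a coding sequence (CDS) at nt 84 to 956 and a 3′UTR of 2683 nt. Pdcd1lg2 starts 22823 bases farther on. Its transcript NM_021396 spans chr19:29410919-29472927, with 6 exons, 3415 nt, a CDS at nt 237 to 980 and a 3′UTR of 2435 nt. In both, exon 3 codes for the V-type domain and exon 4 for the C-type domain.

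GGACT sites in and out of peaks are shown because the same letters are marked in some places and not in others. The capitals mark GGACT, the sequences are read 5′ to 3′ from the RefSeq annotation of GRCm38, and the numbers give the first base of GGACT in the transcript.
Cd274, nt 158, exon 3, chr19:29373568-29373596: cacggctccaaaGGACTtgtacgtggtgg
Cd274, nt 446, exon 3, chr19:29373856-29373884: ctacggtggtgcGGACTacaagcgaatca
Pdcd1lg2, nt 566, exon 3, chr19:29437492-29437520: cggggccgcctgGGACTacaagtacctga
Pdcd1lg2, nt 1064, exon 6, chr19:29470564-29470592: caagagacttctGGACTcaaagtgagaat
The site at nt 158 of Cd274 lay inside a peak in all 3 DC types. The site at nt 1064 of Pdcd1lg2 lay inside a peak in maDC and in imDC. The sites at nt 446 of Cd274 and nt 566 of Pdcd1lg2 share GGACTacaag, both in the exon for the V-type domain, and neither lay in a peak in any DC type. The other 3 GGACT sites, at nt 793 of Cd274 and at nt 1398 and 2860 of Pdcd1lg2, were outside peaks as well, also with 25 bases added on each side. Over all marked transcripts with a usable sequence, the share of GGACT sites inside a peak was 15.0% for imDC, 20.7% for maDC and 14.8% for DCreg.

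**Figure D1:**
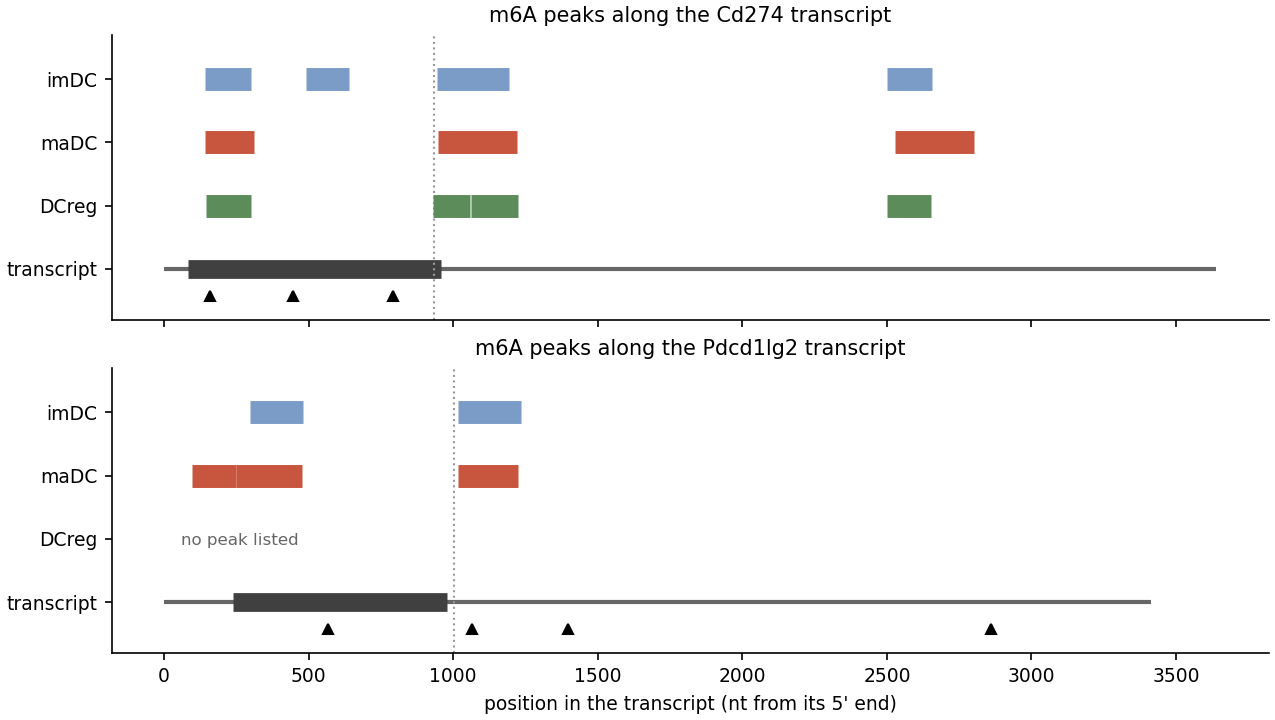
Peaks of Cd274 (top) and Pdcd1lg2 (bottom) along their transcripts, in nt from the 5′ end. Coloured bars are peaks, 1 row for each DC type, the thick black bar is the CDS, the dotted line the start of the last exon and the triangles the GGACT sites. Cd274 has peaks at like positions in all 3 rows, and Pdcd1lg2 has none in DCreg.

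Cd274 carried peaks in every DC type, 4 in imDC, 3 in maDC and 4 in DCreg, over 19.7%, 19.8% and 16.8% of the transcript. Pdcd1lg2 carried 2 in imDC, 3 in maDC and 0 in DCreg, over 11.9% of its transcript in imDC and 17.3% in maDC. Of all 9142 transcripts, 66.1% had a peak in imDC, 88.1% in maDC and 72.8% in DCreg. A set of marks in all 3 types, as for Cd274, was held by 4589 transcripts. They made up 76.0%, 57.0% and 68.9% of the transcripts with a peak in imDC, maDC and DCreg. A set like that of Pdcd1lg2 was held by 10.6% of all transcripts, and 17.5% of the transcripts with a peak in both maDC and imDC had none in DCreg. Either pattern is thus shared with many transcripts. Transcripts with 3 or more peaks made up 18.3%, 29.8% and 24.8% of the marked transcripts of imDC, maDC and DCreg, and those with 4 or more 7.43%, 14.8% and 11.4%.

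The lists give the log2 enrichment of IP over input in each replicate, relative to the median window of the same transcript, and hold only peaks that reached 1 in each of them. They give neither expression nor values below that threshold. The absence of Pdcd1lg2 from the DCreg list therefore cannot be told apart from a transcript too rare to be tested, and in bulk RNA fewer cells of a type and less RNA per cell cannot be told apart either.

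The CDS peak of Cd274 was in exon 3, within the sequence for the V-type domain, and covered the GGACT at nt 158 shown above. It ran from nt 140 to 301 in imDC, 141 to 311 in maDC and 144 to 302 in DCreg. The 2 imDC replicates had log2 enrichments of 3.34 and 2.89, those of maDC 2.79 and 3.08, and those of DCreg 3.98 and 3.53. Both DCreg values were above all others, and those of maDC and imDC overlapped. The lower value of each pair stood at percentile 93.3, 88.4 and 95.7 of the imDC, maDC and DCreg lists. A second coding peak, in exon 4 at nt 491 to 640, was listed in imDC alone, close to the threshold at 1.28 and 1.19 (percentile 19.6 for the lower value).

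Around the stop codon, Cd274 had a peak at nt 944 to 1192 in imDC and at nt 947 to 1222 in maDC, with log2 enrichments of 4.37 and 3.15 in imDC and 3.40 and 3.34 in maDC. In DCreg the same stretch was listed as 2 adjoining peaks. The first, at nt 929 to 1059 over the stop codon, had 3.26 and 2.79, and the second, at nt 1060 to 1223 in the 3′UTR, had 4.02 and 3.21. Their lower values stood between percentile 86.7 and 96.3 of the lists. The stretch held no GGACT, but GGACA at nt 1019 and 1096 and AGACT at nt 1033.

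The strongest peak of Pdcd1lg2 lay just past its stop codon, at nt 1016 to 1225 in maDC (chr19:29470528-29470737, exon 6) and nt 1015 to 1236 in imDC. Its log2 enrichment was 3.85 and 4.60 in maDC, against 3.60 and 4.60 in imDC. The replicates overlapped, and the lower value was the 218th of 17316 peaks in maDC and the 149th of 10517 in imDC. Besides the GGACT at nt 1064, the peak held GGACC at nt 1087 and AGACT at nt 1056, 1152, 1178 and 1213.

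The peaks at and past the stop codon share a position in both genes, which is where the last exon begins. Those of imDC and maDC started 10 and 13 nt after its first base in Cd274 and 11 and 12 nt after it in Pdcd1lg2, and the first of the DCreg pair in Cd274 started 5 nt before it, in exon 6. Among all peaks on transcripts with more than 1 exon, 6.81% in imDC, 8.47% in maDC and 6.52% in DCreg started in the first 100 nt of the last exon.

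The 5′ peaks of Pdcd1lg2 were weaker. In maDC a peak at nt 97 to 247, over the start codon and the junction of exons 1 and 2, had 1.31 and 1.79, and the adjoining CDS peak at nt 248 to 476 had 2.28 and 1.47. imDC had only the CDS peak, at nt 298 to 480, with 1.14 in replicate 1 and 3.00 in replicate 2. That gap of 1.85 between replicates was at percentile 95.0 of the imDC list, where the median gap was 0.56. With both replicates required to reach 1.5, 1 peak of Pdcd1lg2 was left in maDC and 1 in imDC, against 2 of Cd274 in maDC and 3 in imDC.

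**Figure D2:**
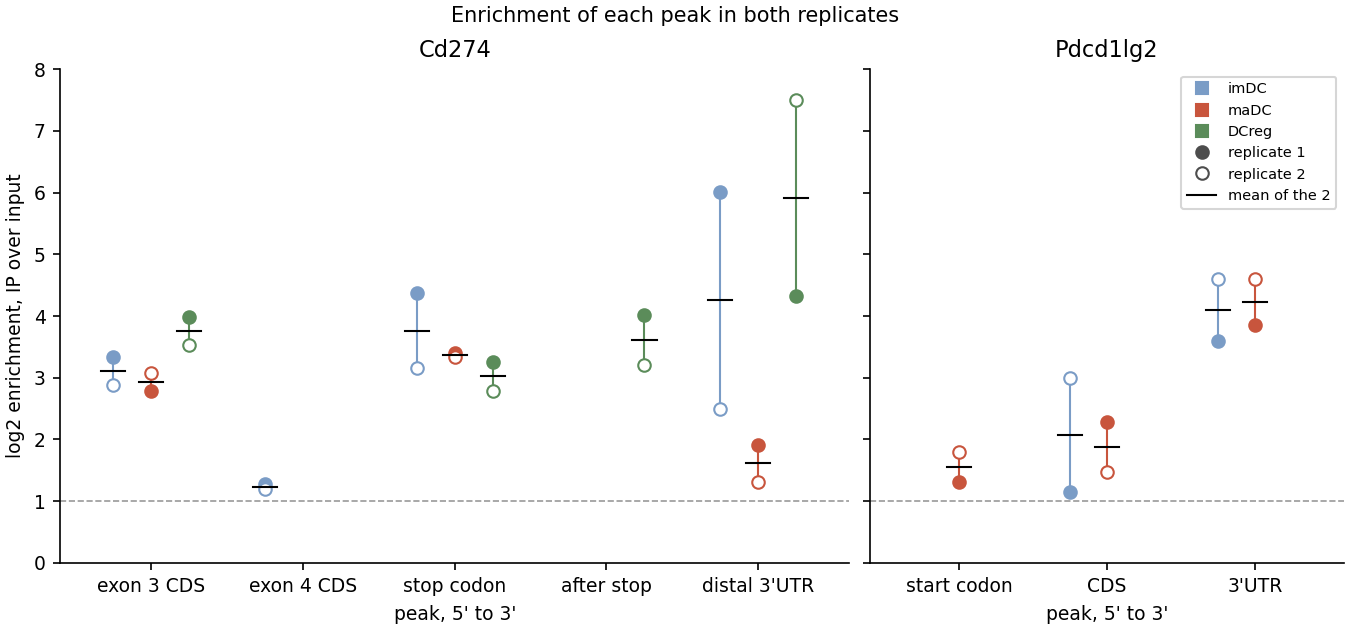
Log2 enrichment (IP over input) of every peak of Cd274 (left) and Pdcd1lg2 (right), ordered 5′ to 3′. Filled points are replicate 1, open points replicate 2, black bars the mean of the 2 values, colours the DC types, and the dashed line the threshold of 1. The distal 3′UTR peak of Cd274 has the widest gaps between replicates, from 2.50 to 6.01 in imDC and from 4.32 to 7.50 in DCreg.

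The highest values of either gene came from a distal 3′UTR peak of Cd274. It lay at nt 2501 to 2657 in imDC, nt 2529 to 2800 in maDC and nt 2499 to 2654 in DCreg (chr19:29386955-29387110, exon 7). Log2 enrichments were 6.01 and 2.50 in imDC, 1.91 and 1.31 in maDC, and 4.32 and 7.50 in DCreg. Every maDC value was below every value of the other types, while imDC and DCreg overlapped. The replicates of 1 type stood far apart, by 3.51 in imDC (percentile 99.9 of the gaps in the list) and 3.18 in DCreg (99.8), against 0.60 in maDC (62.3). The value of 7.50 was the 2nd highest of 13145 in replicate 2 of DCreg, whereas 4.32 was the 389th in replicate 1.

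The sequence of the distal peak was set against that of all peaks. On the transcript strand it held neither GGACT nor any of the 4 related motifs searched. These were the motif GGACA, the motif GGACC, the motif GAACT and the motif AGACT. The same was true of the start codon peak of Pdcd1lg2 in maDC, and of 23.0%, 19.5% and 23.5% of all peaks of imDC, maDC and DCreg. Its GC content was 30.8% to 32.7%, against list medians of 57.4%, 54.3% and 52.1%. Between 59.9% and 68.2% of it is soft-masked as repeat or low-complexity sequence in the genome file. Only 4.02% of imDC peaks, 3.11% of maDC peaks and 5.71% of DCreg peaks were at least 50% masked. In such masked peaks the median gap between replicates was 0.99 for imDC, 0.48 for maDC and 0.96 for DCreg, against 0.54, 0.44 and 0.57 in all other peaks. The part of repeat sequence in the distal values was not tested.

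**Figure D3:**
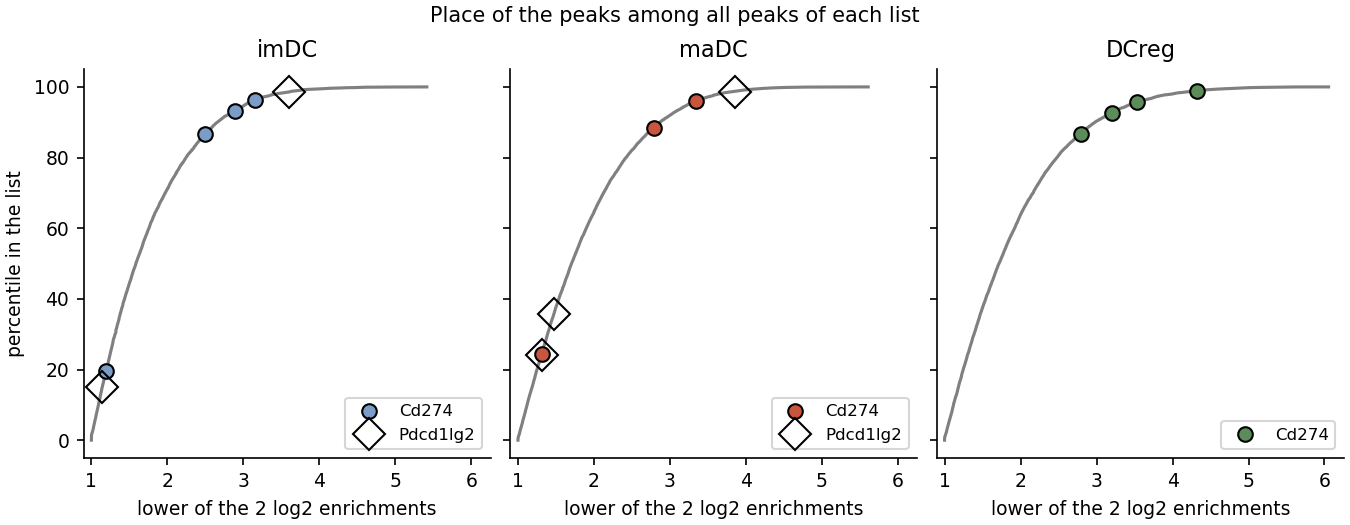
Percentile (y axis) of each peak by the lower of its 2 log2 enrichments (x axis) among all peaks of the imDC, maDC and DCreg lists. The grey line is the whole list, circles are Cd274 and open diamonds Pdcd1lg2. All 4 Cd274 peaks of DCreg are at percentile 86.7 or above, and the best Pdcd1lg2 peak is at 98.6 in imDC and 98.7 in maDC.

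To ask whether marks at the same position changed, peaks overlapping by at least 50% of the shorter one were paired between lists and fitted with limma over all shared peaks. Differences are in log2 enrichment, with Benjamini-Hochberg adjustment over all of them and 2 replicates per type. A peak enters only if it passed the threshold in all 4 replicates, so losses and gains lie outside this fit. The 3 comparisons share samples, and the p-values measure only spread between replicates, not between animals. With trend, limma drew the variance of a peak wholly or in part from peaks of like average enrichment. An SE can thus differ from the peak's own spread. A fit with 1 replicate left out has 1 value in that type and holds no spread of that type.

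The comparison of maDC with imDC holds 24 h more in culture as well as LPS, which cannot be told apart. In maDC against imDC, 0 of 8306 shared peaks passed (0.0%), with 294 at an unadjusted p under 0.05. The median over all was 0.21. The 3′UTR peak of Pdcd1lg2 averaged 4.22 in maDC and 4.10 in imDC, a limma difference of 0.12 ± 0.74 (SE, 95% interval -1.34 to 1.58, adjusted p = 0.999). Its CDS peak averaged 1.88 in maDC and 2.07 in imDC, a difference of -0.19 ± 0.59 by limma (adjusted p = 0.997). For Cd274 the exon 3 peak differed by -0.18 ± 0.69 and the stop codon peak by -0.39 ± 0.72 (limma adjusted p = 0.999 and 0.989). These intervals are wide, and changes of about 1 in either direction are within them.

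The distal Cd274 peak averaged 1.61 in maDC and 4.25 in imDC. Its difference of -2.64 ± 0.69 (95% interval -3.99 to -1.29) was the lowest of all 8306, at an unadjusted limma p of 0.000133 and an adjusted p of 0.982. By replicate it was -4.09 and -1.19. Of the 5 shared peaks of the 2 genes it alone had maDC and imDC values that did not overlap, as had 31.1% of all shared peaks, 7.46% with maDC lower and 23.6% with maDC higher. The difference turned on the imDC replicate that was kept: it was -4.39 without replicate 2 of imDC and -0.89 without replicate 1. Either fit left 1 imDC value, so neither the fit nor its calls held the spread between imDC replicates. Without replicate 2 of imDC, 107 of the 8306 peaks were called.

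For DCreg against maDC, 23 of 8486 shared peaks passed (0.271%), all of them higher in DCreg, with 603 at an unadjusted p under 0.05. One of them was the distal peak of Cd274, which averaged 5.91 in DCreg and 1.61 in maDC. The difference of 4.30 ± 0.73 (95% interval 2.86 to 5.73, limma adjusted p = 3.58e-05) was the highest of all 8486. By replicate it was 2.41 and 6.19. The call was lost without replicate 2 of DCreg (2.71, limma adjusted p = 0.0832) and without replicate 2 of maDC (4.00, adjusted p = 0.149). The SE of 0.73 was the same for all 3 shared Cd274 peaks, while the DCreg replicates of the distal peak stood 3.18 apart. It thus reflects the trend over all peaks and not this peak's own gap. The call was also lost when limma shrank the variances towards 1 common value in place of the trend (4.30 ± 0.78, adjusted p = 0.0964). Under that setting 0 peaks passed (604 at an unadjusted p under 0.05). The count of 23 rested on single libraries too, since it was 143 without replicate 1 of DCreg, 8 without its replicate 2, 1 without replicate 1 of maDC and 2 without its replicate 2.

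Masked sequence was frequent among the called peaks. Of the 21 called peaks on transcripts with a usable sequence, 15 (71.4%) were at least 50% masked in DCreg, against 307 of 7458 shared peaks (4.12%). The distal peak is 1 of these 15, and it was 156 nt long in DCreg against 272 nt in maDC, so its values come from partly different stretches. What masking or peak width adds to the difference was not tested.

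The other 2 shared Cd274 peaks did not pass. The exon 3 peak averaged 3.75 in DCreg and 2.93 in maDC, a limma difference of 0.82 ± 0.73 (adjusted p = 0.854). Its replicates did not overlap, as for 36.2% of all shared peaks, 21.6% with DCreg higher and 14.6% with DCreg lower. The peak past the stop codon averaged 3.62 in DCreg and 3.37 in maDC, a limma difference of 0.25 ± 0.73 (adjusted p = 0.976). The DCreg peak before it, over the stop codon, was left out by the rule that each peak is used once. With every overlapping pair kept, a choice added after seeing the data, it averaged 3.03 in DCreg and 3.37 in maDC, a limma difference of -0.34 ± 0.72 (adjusted p = 0.96), and its replicates did not overlap. Pdcd1lg2 has no value here, since it has no DCreg peak.

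For DCreg against imDC, 0 of 6124 shared peaks passed (0.0%), with 386 at an unadjusted p under 0.05 and a median difference of 0.31. Leaving out 1 replicate at a time, 1 passed without replicate 1 of DCreg and 2 without either replicate of imDC. The exon 3 peak of Cd274 averaged 3.75 in DCreg and 3.11 in imDC (0.64 ± 0.77, limma adjusted p = 0.881). Its replicates did not overlap, as for 37.4% of all shared peaks, 30.2% with DCreg higher. The difference was 0.41 without replicate 2 of imDC, 0.42 without replicate 1 of DCreg and 0.30 with each column centred on its median. The distal peak averaged 5.91 in DCreg and 4.25 in imDC, a limma difference of 1.66 ± 1.14 (adjusted p = 0.817). By replicate it was -1.69 and 5.00, with no common direction, and without replicate 2 of imDC the limma difference was -0.10. The peak past the stop codon differed by -0.15 ± 0.81 (limma adjusted p = 0.975). The DCreg peak over the stop codon, with every overlapping pair kept, averaged 3.03 in DCreg and 3.76 in imDC, a limma difference of -0.73 ± 0.78 (adjusted p = 0.862).

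**Figure D4:**
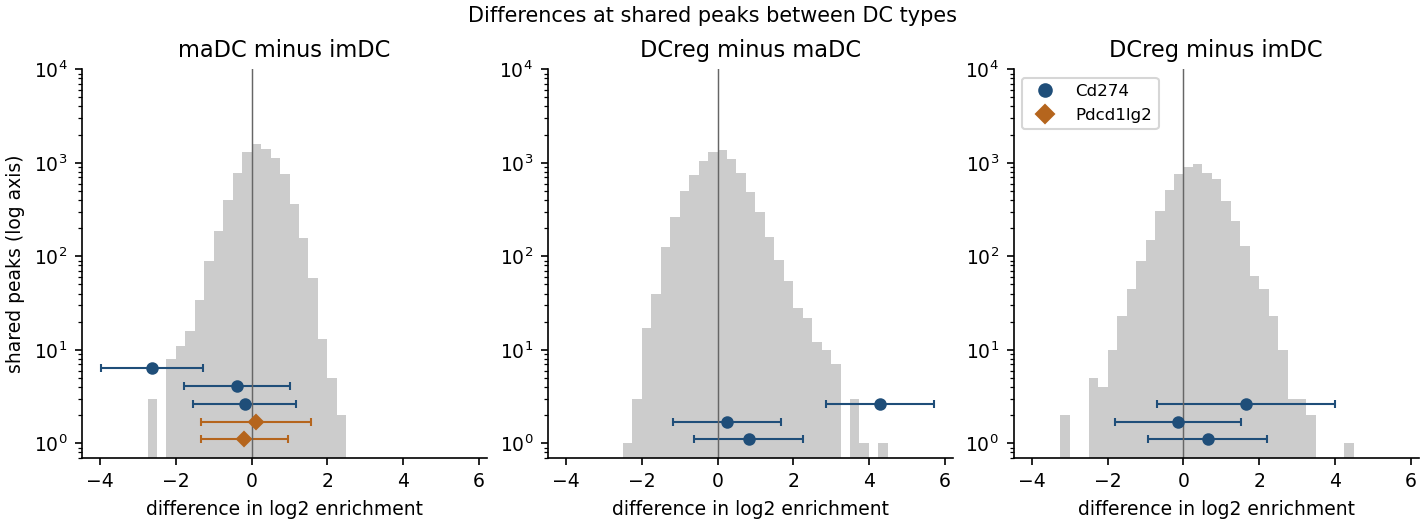
Differences in log2 enrichment at shared peaks (x axis) for maDC minus imDC, DCreg minus maDC and DCreg minus imDC. Grey bars count all shared peaks on a log axis, and points with bars are the members' limma differences with 95% intervals, whose height carries no value. The distal Cd274 peak stands apart at -2.64 (left) and 4.30 (middle), and most other members lie near 0.

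Other genes of the PD-1 pathway were looked up by list, and only the presence and height of their peaks can be read. The list of PD-1 and partners of its ligands has 6 genes, of which 5 were marked in any type, 5 in imDC, 5 in maDC and 4 in DCreg. Of all transcripts marked in any type, 66.1% had a peak in imDC, 88.1% in maDC and 72.8% in DCreg. Ptpn11, which encodes SHP-2, had its strongest peak at 2.60 and 2.66 in imDC, 3.32 and 3.69 in maDC, and 3.18 and 2.77 in DCreg. Pdcd1 itself, the PD-1 gene, had 1 peak in imDC (2.58 and 2.50), 1 in maDC (1.24 and 2.69) and none in DCreg. Cd80, whose protein binds PD-L1 on the same cell as well as CD28 and CTLA-4, had 2, 3 and 1 peaks in imDC, maDC and DCreg. Rgmb, which encodes a binding partner of PD-L2, had 1 peak in each type, and Ptpn6, which encodes SHP-1, had 2, 2 and 1.

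Of 6 other B7 family genes, 4 were marked, and each in all 3 types, as were 4589 of all 9142 transcripts marked in any type. These were Cd80, which is in both lists, Cd86, Icosl, the ligand of ICOS, and Vsir, which encodes the inhibitory protein VISTA. Icosl had its strongest peak at 2.48 and 3.46 in imDC, 3.26 and 3.98 in maDC, and 4.00 and 3.78 in DCreg. Cd276 and Vtcn1 had no peak. Among 8 genes of other inhibitory ligands, 7 were marked in any type, 5 of them in imDC, 7 in maDC and 3 in DCreg, beside 66.1%, 88.1% and 72.8% of all transcripts marked in any type. Of the 7 marked in maDC, 4 had no DCreg peak, which held for 27.4% of all transcripts marked in maDC. Cd200, whose protein restrains myeloid cells through its receptor, had 2.86 and 3.07 in imDC, 3.27 and 3.54 in maDC and no peak in DCreg, the presence pattern of Pdcd1lg2. Cd47, the ligand of SIRPα, was listed in all 3 types.

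All 16 genes for handling of the PD-L1 protein were marked in some type, 12 in imDC, 15 in maDC and 12 in DCreg, near the 66.1%, 88.1% and 72.8% of all marked transcripts. Cmtm6, which keeps PD-L1 at the cell surface, had its strongest peak at 3.98 and 3.27 in imDC, 3.12 and 3.17 in maDC, and 3.44 and 3.67 in DCreg. Spop, the adaptor through which Cul3 ubiquitinates PD-L1, had 3.04 and 4.78 in imDC, 4.49 and 4.64 in maDC, and 4.01 and 3.90 in DCreg. Of 20 genes for signals that induce the ligands, 19 were marked in any type, 17 of them in imDC, 19 in maDC and 15 in DCreg, against the same shares of all transcripts. They included the kinase genes Jak1 and Jak2 and the transcription factor gene Nfkb1. Irf1, a main activator of Cd274 in many cells, had none. Within 500 kb of the 2 genes, 11 of 30 neighbours were marked, all 11 in maDC and 8 each in imDC and DCreg, and Jak2 was again one of them.

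Markers of the cells were looked up in the same way, beside the 66.1%, 88.1% and 72.8% of all marked transcripts with a peak in imDC, maDC and DCreg. Of 13 DC marker genes, 12 were marked in any type, 10 of them in imDC, 12 in maDC and 6 in DCreg. Itgax (the CD11c gene), H2-Aa, Ccr7, Irf4, Irf8 and Cd83 were listed in all 3 types. Flt3, Cd74, H2-Ab1, H2-Eb1, Zbtb46 and Fscn1 were marked in maDC but not in DCreg, and Cd74 and H2-Eb1 not in imDC either. Several maDC peaks were near the threshold of 1, as for Cd74 (1.18 and 1.39), H2-Ab1 (1.24 and 1.07) and H2-Aa (1.74 and 1.06). Zbtb46 had 1.81 and 3.19 in maDC, and Ccr7 3.01 and 3.33. Of all transcripts marked in maDC, 27.4% had no DCreg peak. For endothelial cells, the partners in the DCreg culture, 10 genes were searched. Of the 4 marked in any type, 1 had a peak in imDC, 4 in maDC and 2 in DCreg. Cdh5, Tek and Tie1 were among those with no peak. Kdr, which encodes a VEGF receptor, had 3 peaks in maDC (the strongest at 3.22 and 3.93) and 1 in DCreg (3.71 and 2.53). Vwf, which encodes von Willebrand factor, had 1 in maDC (1.77 and 2.23) and 3 in DCreg (the strongest at 2.21 and 2.34). Eng was marked in imDC and maDC, and Pecam1 in maDC alone. Of 7 stromal genes, 3 were marked in any type, 0 of them in imDC, 1 in maDC (Thy1) and 2 in DCreg (Col1a1 and Col1a2). The part of other cells in the DCreg peaks of Cd274, or in the missing ones of Pdcd1lg2, was not tested.

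The genes most like Cd274 were Ip6k1, Copa and Mia3, at Euclidean distances of 4.19, 4.32 and 5.35. These were taken over the 6 replicate values of the strongest peak in each type. For Cd274 that was the stop codon peak in imDC and maDC, but the distal peak in DCreg, with 4.32 and 7.50. They were taken from 9 genes with the same numbers of peaks per type, whose median distance was 5.78, so the likeness is loose. Ip6k1, which encodes an inositol hexakisphosphate kinase, had 4.72 and 3.26 in imDC, 3.07 and 3.97 in maDC, and 4.05 and 3.39 in DCreg. The genes most like Pdcd1lg2 were Atp11b, Vsig10 and Dyrk1b, at 1.58, 1.82 and 1.87 over 4 values, from 36 genes with a median of 4.29. Atp11b, a phospholipid flippase gene, had 4.08 and 4.21 in maDC, against 2.44 and 3.63 in imDC, with no peak in DCreg.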

How the data were processed

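RNA of 3 DC types was measured by meRIP-seq in 12 libraries. Per the methods, the authors aligned reads to mm10 with TopHat2 2.0.14, counted them in sliding windows on the longest isoform, compared IP with input by edgeR and merged windows that passed in both replicates. The deposited lists hold the log2 enrichment per replicate, already normalized within each transcript and library, with a lowest value of 1. Read depth is unknown and no other value columns were left out (0). Columns named replicate 1 and 2 were taken to follow the labels, which could not be checked.

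Of 9142 transcripts, 8193 (89.6%) had a GRCm38 sequence that fitted the listed positions and served for motifs and masking. Peaks with 50% or more of the shorter one in common were paired, each used once, and fitted with limma 3.58.1 (lmFit, eBayes with trend, R 4.3.3) at an adjusted p of 0.05. The tools were pandas 2.3.3, NumPy 2.4.6, pysam 0.24.0 and matplotlib 3.10.9 under Python 3.11.15. The deviations of same-numbered replicates correlated at -0.117 for maDC with imDC, -0.0398 for DCreg with maDC and -0.345 for DCreg with imDC. The main fit had no block. A crossed block, pairing unlike replicate numbers, was added for the 2 comparisons with imDC after seeing the data.

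The 2 genes and all lists were chosen with earlier results of these data known. Text names follow 1 rule: both members, the 3 genes nearest to each by the strongest peak, and up to 6 genes per list with the highest lower value in maDC. Genes outside it, such as Irf1, Cd276, Vtcn1, Cdh5, Tek, Tie1, Flt3, Cd74, H2-Aa, H2-Ab1, H2-Eb1, Fscn1, Col1a1 and Col1a2, were named after their values were seen. Other overlaps, centring, stricter thresholds, variance models, the block and each replicate left out were alternatives.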

Additional observations from a re-analysis of the deposited data

How the results depend on the processing

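At a log2 enrichment of at least 1.5, and at 2, in both replicates, Pdcd1lg2 kept 1 peak in maDC and 1 in imDC, against 3 and 2 at the deposited threshold. The counts for Cd274 stayed within 1.5 times, and for both genes the numbers of shared peaks were the same at an overlap of 1 base, 50% or 80%. With every overlapping pair kept, added after seeing the data, Cd274 had 4 in place of 3 for DCreg with maDC and for DCreg with imDC. Called peaks of DCreg against maDC numbered 23. They were 10 at an overlap of at least 80%, 8 at an enrichment of at least 1.5 in all 4 replicates, 0 with eBayes without trend, and 1 to 143 with each replicate left out in turn. With the replicate number as a block, 1 peak was called, the distal Cd274 peak (limma adjusted p = 0.0125). For maDC against imDC, where 0 were called, leaving out each replicate gave 0 to 107. For DCreg against imDC, also 0, it gave 0 to 2, and centring the columns gave 2. The block gave 0 in both, with no call of a member. A crossed block, added after seeing the data, called 1 peak for maDC against imDC and 38 for DCreg against imDC.

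Differences near 0 changed sign, most often with a replicate left out. Over these fits the maDC minus imDC difference ran from -1.12 to 0.73 for the Pdcd1lg2 CDS peak and from -0.38 to 0.62 for its 3′UTR peak, which was -0.15 with centred columns. It ran from -0.41 to 0.05 for the exon 3 peak of Cd274 and from -1.0 to 0.21 for its stop codon peak. The peak past the stop codon ran from -0.16 to 0.65 for DCreg minus maDC and from -0.75 to 0.46 for DCreg minus imDC, and the distal peak from -0.10 to 3.41 for DCreg minus imDC. The DCreg minus maDC difference of the distal peak ran from 2.71 to 5.89. With all 4 replicates it was called with the block and with centred columns (limma adjusted p = 0.0125 and 0.00363). It was not called with eBayes without trend (limma adjusted p = 0.0964). The other overlap settings left its values, difference and SE unchanged, so their calls add little. At an enrichment of at least 1.5 in all 4 replicates the peak dropped out, since replicate 2 of maDC had 1.31. With 2 replicates, unknown depth and lists that stop at 1, small changes and unmarked transcripts are out of reach.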
